A study of Rattus norvegicus with 10 samples.

Results

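The genes described here encode the extracellular metalloproteases of the matrix metalloproteinase (MMP), ADAM and ADAMTS families and the TIMP proteins that inhibit them. Members were the rows of the deposited table whose gene name was Mmp, Timp, Adam or Adamts followed by a digit, which gave 70 of 32623 genes. Of these, 48 had a mean of at least 10 normalized counts over the 10 samples and were tested, among 15597 genes tested in all. The rule used gene names and the mean level over both groups. A gene high in a single group could thus pass through that group, as was the case for Mmp12.

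RNA sequencing had been done on the supraoptic nucleus, a paired hypothalamic nucleus of vasopressin and oxytocin neurons, of male Sprague-Dawley rats kept on a 12:12 light cycle with free food and water. Each rat had received adeno-associated virus carrying a short hairpin RNA, directed against Opn3 in one nucleus (shOpn3) and non-targeting in the other (shControl). Nuclei were punched out of frozen sections 2 weeks later and extracted singly, with 5 samples per group. Both groups had thus been injected with virus, and no uninjected nucleus was compared. Since a rat gave 1 nucleus to each group, the 5 samples of a group came from different animals. The age of the rats, the promoter of the hairpins and the cells they reached are not given in the sources used here, and a punch holds all cell types of the tissue.

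MMPs, ADAMs and ADAMTS enzymes are zinc-dependent proteases that cut the extracellular matrix and proteins of the cell surface. MMPs degrade collagens and other matrix proteins, ADAM sheddases release the outer parts of membrane proteins such as growth factors and cytokine receptors, and several ADAMTS enzymes cut the chondroitin sulphate proteoglycans that fill the space between brain cells. TIMPs bind the active sites of these enzymes, so that activity in a tissue depends on both sides, and most of the enzymes are made as inactive precursors. Transcript levels therefore do not give protease activity, which was not measured.

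Reads recovered from the deposited values came to 33158341 to 39958578 per library, summed over genes. Reads not assigned to a gene are not included. Normalized counts (reads divided by the sample's size factor of 0.942 to 1.07) were close to reads. Opn3 (ENSRNOG00000003778) lay between 261 and 1007 normalized counts in shControl and between 145 and 290 in shOpn3 (log2 difference -1.82 with SE 0.320, adjusted p = 0.00226 by limma), so the groups overlapped by 1 sample, shControl replicate 5. Avp and Oxt, the defining transcripts of this nucleus, were present in every sample, with summed normalized counts of 52511 to 158977 in shControl and 8429 to 30626 in shOpn3. In bulk tissue, more cells of a type and more RNA per cell cannot be told apart, nor can fewer cells and less RNA per cell. Differences are on the log2(normalized count + 1) scale, shOpn3 minus shControl, and were tested with limma and a Benjamini-Hochberg adjustment over all 15597 genes, with 0.05 as the threshold.

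Of the 48 members tested, 12 (25.0%) differed between the groups, where 18.8% of all genes tested did. There were 6 higher in shOpn3 (background 10.4%) and 6 lower (background 8.48%). Timp1, Mmp12, Mmp2, Adamts5, Adamts9 and Adamts19 were higher, and Timp4, Adam19, Adam23, Adamts3, Adamts4 and Adamts20 were lower. Groups without overlap were seen for 9 of the 48 members (18.8%) and for 15.3% of all genes. Both shares of the members lay near those of all genes. A difference of at least 1 was reached by 2 members, Mmp12 and Timp1, and 4.98% of all genes tested were called with a difference that large. The median difference was 0.12 over the 48 members and -0.02 over all genes tested. All 12 differences had the same direction in 5 of 5 pairs of same-numbered samples. For 9 of them this followed from the lack of overlap, and all 12 were called on these same values. The share among all genes was not counted, so the agreement is no separate support.

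**Figure D1:**
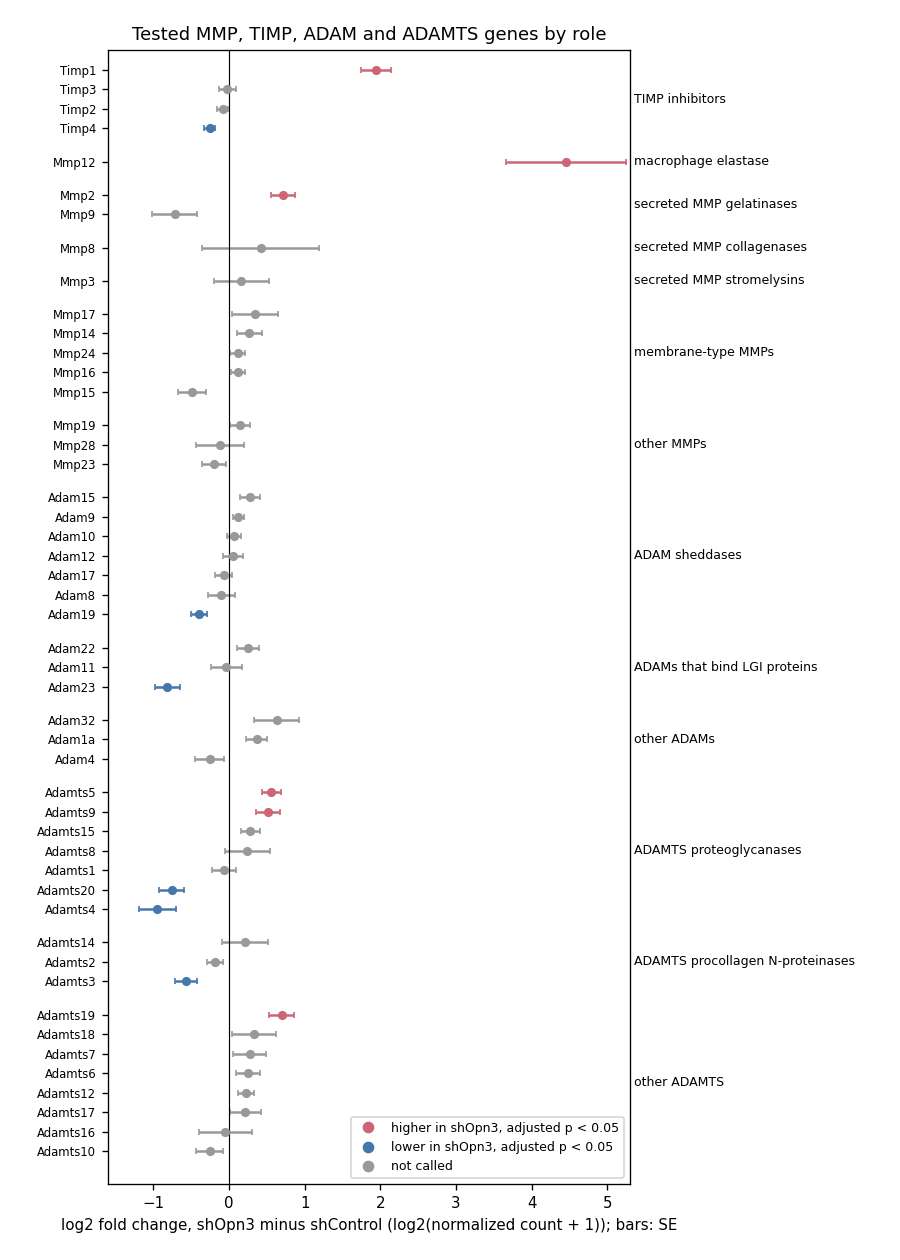
Log2 fold change (shOpn3 minus shControl, x axis, on the log2(normalized count + 1) scale) of the 48 tested members, grouped by role; bars are the SE of the limma fit, and colours mark calls at an adjusted p under 0.05. Timp1 at 1.95 and Mmp12 at 4.45 lie far to the right of all other members, which fall between -0.95 and 0.71.

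The 4 TIMPs did not move together: Timp1 rose, Timp4 fell, and Timp2 and Timp3 were not called. Timp1 (ENSRNOG00000010208), a secreted inhibitor that cells induce during inflammation and tissue injury, had 428, 425, 288, 420.4 and 564 normalized counts in shControl replicates 1 to 5. In shOpn3 replicates 1 to 5 it had 1247, 1183, 1957, 2158 and 1712. Every shOpn3 sample was above every shControl sample, and the lowest shOpn3 value was more than double the highest shControl value. The means were 425 ± 97.8 and 1651 ± 429 (SD, n = 5 each), a 3.88-fold ratio (log2 difference 1.95 with SE 0.198, adjusted p = 0.000168 by limma; two-sided exact permutation p = 0.00794, the smallest that 5 against 5 samples allow with pairs ignored). Within pairs 1 to 5, the shOpn3 value was 2.91, 2.78, 6.80, 5.13 and 3.03 times the control. The increase was thus greatest in pairs 3 and 4.

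Timp4 (ENSRNOG00000007955), a TIMP made mainly in brain and heart, had 1709, 1739, 1715, 1787 and 1953 normalized counts in shControl replicates 1 to 5 and 1368, 1448, 1486, 1599.6 and 1565 in shOpn3 replicates 1 to 5. The groups did not overlap, but the gap between them was narrow, from 1600 to 1709. The difference was small beside that of Timp1 (log2 difference -0.25 with SE 0.0706, adjusted p = 0.0249 by limma; exact permutation p = 0.00794). It was not called without shControl replicate 4 (adjusted p = 0.0557) or without shOpn3 replicate 1, 2 or 3 (adjusted p = 0.0509, 0.0531 and 0.0608).

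Timp2, which takes part in the activation of pro-MMP2 besides its role as an inhibitor, had 12417 ± 859 in control nuclei and 11716 ± 968 in shOpn3 nuclei (each n = 5, SD; log2 difference -0.08 with SE 0.0777, adjusted p = 0.492 by limma). Timp3, which binds to the matrix and also inhibits ADAM17, had 6822 ± 436 and 6782 ± 1132 (each n = 5, SD; log2 difference -0.02 with SE 0.111, adjusted p = 0.912 by limma). For Timp3 the shOpn3 samples spread more widely than the controls, from 5184 in replicate 1 to 7966 in replicate 4.

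In the RefSeq gene table (assembly GRCr8), Timp1, Timp4 and Timp3 each lie within a synapsin gene, namely Syn1, Syn2 and Syn3. Whether the authors' counting used the strand is not given in the sources used here, so reads of the host and of the TIMP cannot be told apart where they overlap. The hosts, chosen after their values were seen, had log2 fold changes of 0.40 (Syn1, SE 0.126, adjusted p = 0.0412 by limma, not called in 9 of 20 alternative fits), -0.15 (Syn2, SE 0.141, adjusted p = 0.513) and 0.19 (Syn3, SE 0.146, adjusted p = 0.400). Timp1 differed by 1.95 and Timp4 by -0.25. Timp4 fell in each pair, while Syn2 was higher in 2 pairs and lower in 3. Host and TIMP were not tested against each other, nor was the part of host reads in the TIMP values.

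**Figure D2:**
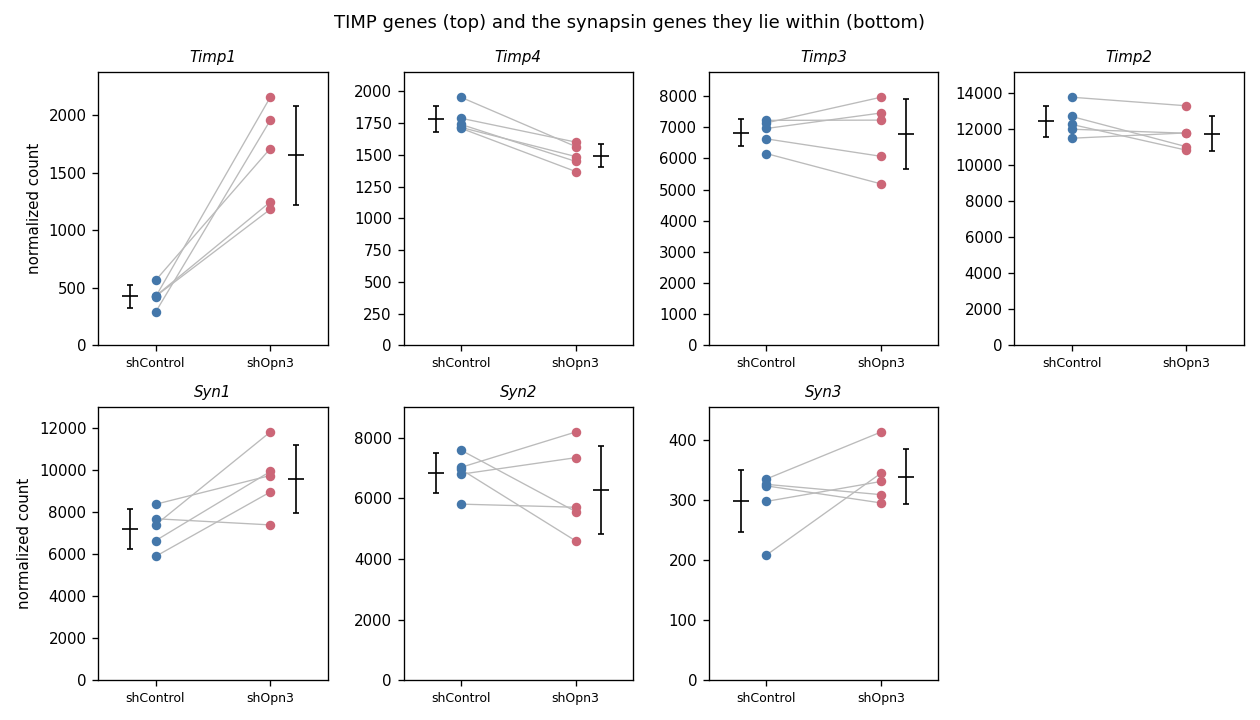
Normalized counts (y axis from 0) of the 4 TIMP genes (top) and of the synapsin genes that hold 3 of them (bottom) in 5 shControl and 5 shOpn3 samples; points are samples, grey lines join same-numbered samples, and the bars beside them give mean ± SD. Timp1 rises in each pair with no overlap, Timp4 falls in each pair by a small amount, and the pairs of Timp2 and Timp3 do not share a direction.

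Among secreted MMPs, Mmp12 and Mmp2 rose, while Mmp9, Mmp3 and Mmp8 were not called. Mmp12 (ENSRNOG00000030187) encodes macrophage elastase, a protease made mainly by macrophages. It had 4, 1, 2, 9 and 16 reads in shControl replicates 1 to 5 and 906, 77, 51, 163 and 45 reads in shOpn3 replicates 1 to 5. The lowest shOpn3 sample thus held more reads than the highest control, and replicate 1 stood far above the other shOpn3 samples. The ratio of the mean normalized counts was 37.1 with all samples (log2 difference 4.45 with SE 0.793, adjusted p = 0.00244 by limma) and 12.8 without shOpn3 replicate 1, where the log2 fold change was 3.74. With few reads in the controls, the fitted size also depended on the method, at 3.11 with a pseudocount of 10 in place of 1 and 5.21 in DESeq2. In the pair with the most control reads, pair 5, the shOpn3 value was 2.74 times the control.

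Microglial markers rose in the same samples, as 9 of 10 genes of that list were higher and 0 lower. Their summed normalized counts were 15809 to 19428 in shControl and 25437 to 49252 in shOpn3. Of the perivascular macrophage and monocyte list, 1 of 4 genes was higher (sums 1169 to 1685 and 1553 to 2577), and no marker of either list in the table was at 0 in all samples. By Timp1, the 5 shOpn3 samples ran in the order of replicates 4, 3, 5, 1 and 2 from high to low. Summed microglial, astrocyte and T cell markers gave the same order, and the perivascular macrophage and monocyte sum did not. In shControl, the order by Timp1 was that of the astrocyte sum but not of the microglial or T cell sum. The neuronal sum ran in the exact reverse of the Timp1 order in both groups. It went from 195583 (replicate 2) to 114566 (replicate 4) in shOpn3 and from 163128 (replicate 3) to 111879 (replicate 5) in shControl. The sample highest in Mmp12, shOpn3 replicate 1, had the second lowest microglial sum of its group (30518). The part of these cell types in the rises of Mmp12 and Timp1 was not tested.

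Mmp2 (ENSRNOG00000016695), gelatinase A, which cuts denatured collagens and basement membrane collagen, had 340.5, 417, 359, 323 and 489.5 normalized counts in shControl replicates 1 to 5. It had 522, 498, 710.2, 817 and 640.0 in shOpn3 replicates 1 to 5. The groups did not overlap, and shOpn3 replicates 3 and 4, which were also highest for Timp1, were highest (log2 difference 0.71 with SE 0.156, adjusted p = 0.00748 by limma; exact permutation p = 0.00794). Fibroblast, endothelial and mural markers gave no calls in these samples (0 of 4, 0 of 5 and 0 of 5 genes).

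Mmp9 (ENSRNOG00000017539), gelatinase B, which neutrophils store and microglia can secrete, had 31.6, 45.8, 37.8, 46.8 and 34.8 normalized counts in control nuclei and 48.0, 24.4, 23.4, 12.6 and 19.5 in shOpn3 nuclei. Replicate 1 of shOpn3 was the highest of all 10 samples and the other 4 shOpn3 samples were below every control. It was not called (log2 difference -0.72 with SE 0.298, adjusted p = 0.118 by limma), and without shOpn3 replicate 1 it was lower (log2 fold change -0.97, adjusted p = 0.0154), as it was in limma-voom with sample weights (-0.95, adjusted p = 0.00804). Mmp8, neutrophil collagenase, had 1, 7, 6, 23 and 13 reads in shControl and 21, 3, 2, 19 and 32 in shOpn3 nuclei (log2 difference 0.42 with SE 0.772, adjusted p = 0.754 by limma). Mmp3, stromelysin 1, a protease of broad specificity that can activate other pro-MMPs, had 4 to 12 reads per control and 5 to 18 per shOpn3 sample (log2 difference 0.16 with SE 0.362, adjusted p = 0.800 by limma). Reads of Mmp8 ranged from 2 to 32 within shOpn3 alone, so the spread between replicates was wide for these low transcripts. Of the neutrophil list, Elane had 0 reads in all samples and 0 of 3 tested genes were called.

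In RefSeq order, Mmp12 belongs to a run of 10 neighbouring MMP genes, namely Mmp13, Mmp12, Mmp1b, Mmp3, Mmp1, Mmp10, Mmp8, Mmp27, Mmp20 and Mmp7. Only 3 of the 10 reached the level to be tested, and Mmp12 was the one called. Mmp12 did so through shOpn3, since its control mean of 6.49 normalized counts lay under the limit and under the control mean of the untested Mmp13 (7.24), so its place among the tested genes followed in part from the difference itself. Mmp13, collagenase 3, fell just below the limit, with 4, 5, 7, 10 and 10 reads in shControl and 21, 6, 8, 8 and 10 in shOpn3 nuclei. Mmp7, matrilysin, had 0 reads in every control and 6, 0, 0, 1 and 1 in shOpn3 replicates 1 to 5, at or under the floor of 3 reads in all but replicate 1. Replicate 1 was the highest shOpn3 sample for Mmp12, Mmp13, Mmp3 and Mmp7. Replicate 4 was the highest for Mmp1b (6 reads) and Mmp10 (7 reads), and replicate 5 for Mmp8 (32 reads). Mmp1 and Mmp1b are related genes whose sequences were not compared here. Whether the authors' counting split reads between them cannot be told from the sources used.

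**Figure D3:**
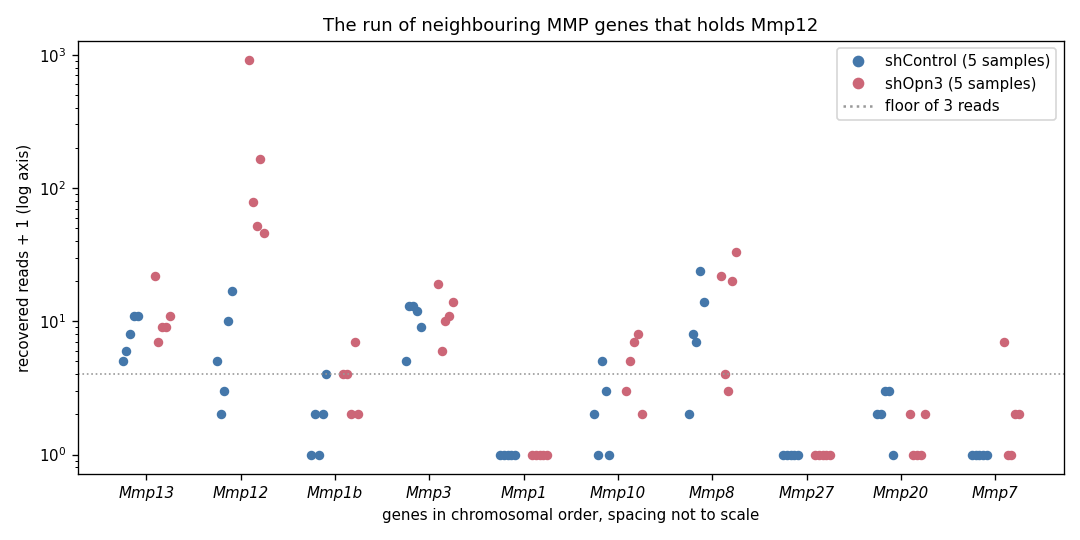
Recovered reads plus 1 (y axis, log scale) for the 10 neighbouring MMP genes in chromosomal order (x axis, not to scale), with 1 point per sample for 5 shControl and 5 shOpn3 libraries and a dotted line at 3 reads. The groups separate at Mmp12 and at none of its neighbours, most of which lie near or under the dotted line.

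Promoters of this run are shown because Mmp12 was the only called gene among those of the run that could be tested. AP-1, the Fos and Jun transcription factor, is a known activator of MMP genes through a proximal site. The 250 bases upstream of the Mmp12 start (RefSeq, GRCr8, chr8:12866402-12866651, plus strand) are given here 5′ to 3′ with the AP-1 motif TGANTCA, searched on both strands, in capitals.
Mmp12: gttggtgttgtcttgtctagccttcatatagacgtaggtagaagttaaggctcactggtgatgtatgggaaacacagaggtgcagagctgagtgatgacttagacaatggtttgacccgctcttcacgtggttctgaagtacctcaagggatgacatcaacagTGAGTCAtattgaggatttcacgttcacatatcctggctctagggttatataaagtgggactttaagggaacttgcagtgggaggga

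The motif begins 87 bases before the start. In windows of 250 bases before to 50 after the start it was found in 7 of the 10 genes of the run, against 7.33% of all 33469 promoters of the table. Outside the run, 2 of 36 members with a promoter in the table held it. The stretches around the match nearest to the start, all on the plus strand of chromosome 8, are printed to compare the sites, with the motif in capitals and 10 bases on each side.
Mmp13: ccccaagtggTGACTCAtcactattgc
Mmp12: acatcaacagTGAGTCAtattgaggat
Mmp3: gaagcaattaTGAGTCAgtttgcgggt
Mmp1: ttgtcaaccaTGAGTCAcgtagcctct
Mmp10: agcacccacaTGAGTCAtgcttagtga
Mmp20: atttgagacaTGAATCAtcacttgcag
Mmp7: agcatgagaaTGAGTCAccgattccca

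The Mmp12 window lies at chr8:12866555-12866581 and that of Mmp3 at chr8:12925200-12925226. The 7-letter core of Mmp12 was also that of Mmp3, Mmp1, Mmp10 and Mmp7, whose transcripts had at most 18 reads in any sample. The same letters were thus found beside a called gene and beside genes that were uncalled or too low to test. No match was found in Mmp1b, Mmp8 or Mmp27, which says only that these letters are not in the window.

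Timp1, the other member with a difference of at least 1, is shown for comparison, with 250 bases upstream of its start (RefSeq, GRCr8, chrX:3771123-3771372, minus strand) and the PEA3/Ets motif AGGAAG, searched on both strands, in capitals.
Timp1: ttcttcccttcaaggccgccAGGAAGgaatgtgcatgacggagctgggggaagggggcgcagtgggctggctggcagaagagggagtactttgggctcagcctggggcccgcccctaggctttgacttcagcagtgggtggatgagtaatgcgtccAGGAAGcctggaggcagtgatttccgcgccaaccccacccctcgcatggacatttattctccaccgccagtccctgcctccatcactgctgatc

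Its window held no TGANTCA and 2 matches to AGGAAG, a motif found in 34.5% of all promoters of the table and in 19 of 46 members. Only exact matches were counted. Near matches to the AP-1 motif were thus missed, such as the tgagtaa shortly before the AGGAAG nearer to the start. The AP-1 motif was found in 1 of the 3 higher and 1 of the 5 lower members with a promoter in the table, namely Mmp12 and Adam19. The Ets motif was found in 1 of 3 and 2 of 5. These counts are descriptions of sequence and not of binding.

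None of the 5 membrane-type MMPs, which act at the cell surface, was called. Mmp14 (MT1-MMP), the main activator of pro-MMP2, had 2036, 1613, 1223, 1646 and 2146 normalized counts in control nuclei and 2353, 1557, 1796, 2497 and 2177 in shOpn3 nuclei. The groups overlapped (log2 difference 0.27 with SE 0.165, adjusted p = 0.294 by limma). Mmp15 (MT2-MMP, ENSRNOG00000012622) had 1713, 1059, 900.1, 1086 and 1675 in control nuclei and 1079, 788, 735, 925 and 946 in shOpn3 nuclei, lower in 5 of 5 pairs. Control replicates 1 and 5 were the highest. The difference was not called (log2 difference -0.49 with SE 0.182, adjusted p = 0.0841 by limma), nor was it when either of these controls was left out. With the replicate number as a block it was called (adjusted p = 0.00646), as it was without shControl replicate 3 (adjusted p = 0.0334). With the block, 13 of 48 members were called, where 30.3% of all genes were.

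Of the ADAM sheddases, 1 of 7 tested members was called. ADAM10 and ADAM17 are the main sheddases of Notch, amyloid precursor protein, tumour necrosis factor and many receptors. Adam10 had 5602 ± 484 normalized counts in control nuclei and 5883 ± 649 in shOpn3 nuclei (each n = 5, SD; log2 difference 0.07 with SE 0.0898, adjusted p = 0.647 by limma). Adam17 had 2612 ± 139.9 and 2509 ± 437 (each n = 5, SD; log2 difference -0.07 with SE 0.106, adjusted p = 0.682 by limma). Both differences were smaller than the spread between replicates. Adam8, a sheddase of myeloid cells, had 51.0 to 78.1 in shControl and 43.9 to 69.5 in shOpn3 (log2 difference -0.10 with SE 0.177, adjusted p = 0.732 by limma).

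Adam19 (ENSRNOG00000042980), also known as meltrin beta and a sheddase of neuregulins, had 793, 896, 827, 688 and 999 normalized counts in shControl replicates 1 to 5 and 684, 557, 638, 619 and 684 in shOpn3 replicates 1 to 5. The lowest control (688) lay just above the highest shOpn3 sample (684). The fall was modest (log2 difference -0.39 with SE 0.106, adjusted p = 0.0218 by limma; exact permutation p = 0.00794). The call was lost without shControl replicate 2 (adjusted p = 0.0590) and without shOpn3 replicates 2 or 3 (adjusted p = 0.0516 and 0.0511).

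ADAM11, ADAM22 and ADAM23 lack protease activity and bind secreted LGI proteins at synapses and axons. Only Adam23 (ENSRNOG00000012424) was called among the 3. It had 9009, 10139, 11891, 9395 and 7005 normalized counts in shControl replicates 1 to 5. In shOpn3 replicates 1 to 5 it had 7130.1, 6354, 4897, 3982 and 4788. Every shOpn3 sample but replicate 1 (7130) lay below every control, while control replicate 5 (7005) was the lowest of its group. The mean fell from 9488 ± 1775 to 5430.3 ± 1279 (each n = 5, SD; log2 difference -0.82 with SE 0.167, adjusted p = 0.00525 by limma; exact permutation p = 0.0159).

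Adam22 had 2345 ± 486 in control nuclei and 2766 ± 384 in shOpn3 nuclei (each n = 5, SD; log2 difference 0.25 with SE 0.149, adjusted p = 0.270 by limma), and Adam11 had 1493 ± 476 and 1429.5 ± 308 (each n = 5, SD; log2 difference -0.03 with SE 0.207, adjusted p = 0.932 by limma). General neuronal markers were higher for 1 and lower for 0 of 7 genes, with summed counts of 111879 to 163128 in shControl and 114566 to 195583 in shOpn3. With the replicate block, Tubb3, a neuronal tubulin singled out after its value was seen, was also lower (log2 difference -0.38, adjusted p = 0.00850 by limma). The sum of Avp and Oxt, given above, fell in the same samples as Adam23, and its part in that fall was not tested.

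The ligands were examined beside these receptors, singled out after their values were seen. Lgi1, the secreted partner of ADAM22 and ADAM23, rose from 3754 ± 371 to 5487 ± 1104 (each n = 5, SD; log2 difference 0.53 with SE 0.132, adjusted p = 0.0150 by limma). Lgi3 fell from 5798 ± 638 to 3742 ± 503 with no overlap (each n = 5, SD; log2 difference -0.63 with SE 0.104, adjusted p = 0.00154 by limma). Lgi2 (-0.26, adjusted p = 0.529) and Lgi4 (0.20, adjusted p = 0.465) were not called, although Lgi4 was in the weighted limma-voom fit (adjusted p = 0.0200).

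The ADAMTS proteoglycanases, which cut aggrecan, brevican, versican and related proteoglycans, split by direction. Of 7 tested, Adamts5 and Adamts9 rose, Adamts4 and Adamts20 fell, and Adamts1, Adamts8 and Adamts15 were not called. Adamts4 (ENSRNOG00000003538), which mature oligodendrocytes express, had 3322, 1879, 2077, 1978 and 3834 normalized counts in shControl replicates 1 to 5. In shOpn3 replicates 1 to 5 it had 1405, 806, 1161, 1599.6 and 1757. The groups did not overlap, and control replicates 1 and 5 stood above the other controls (log2 difference -0.95 with SE 0.242, adjusted p = 0.0168 by limma; exact permutation p = 0.00794).

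Adamts20 (ENSRNOG00000033397), an enzyme known from pigment cell development, showed a like order, with 405, 311, 348, 336 and 601 in control nuclei and 225, 207, 213, 237 and 269 in shOpn3 nuclei. Here too control replicates 5 and 1 were the highest and the groups did not overlap (log2 difference -0.76 with SE 0.167, adjusted p = 0.00770 by limma). Oligodendrocyte markers fell in 8 of 8 genes, from summed counts of 718515 to 1219551 in shControl to 244005 to 461422 in shOpn3, and control replicates 5 and 1 were again the highest (1219551 and 944357). The same 2 control libraries were also the highest in summed microglial (19391 and 19428) and astrocyte markers (347382 and 309555), and had the lowest sample weights in limma-voom (0.356 and 0.333). Among controls they were the lowest in summed neuronal markers (111879 and 131376) and the highest in choroid plexus and ependyma markers (2478 and 809). None of these markers was at 0 in all samples. The 3 markers of oligodendrocyte precursors gave 0 calls (sums 9204 to 11066 and 8167 to 11549). The part of oligodendrocytes in the falls of Adamts4 and Adamts20 was not tested.

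Adamts5 (ENSRNOG00000057794), the other main aggrecan-cutting enzyme, had 116, 119, 114, 91.8 and 127 normalized counts in shControl replicates 1 to 5 and 186, 177, 152, 160.3 and 160.3 in shOpn3 replicates 1 to 5. The groups were well apart for a difference of this size (log2 difference 0.56 with SE 0.124, adjusted p = 0.00810 by limma; exact permutation p = 0.00794). Its neighbour on the chromosome, Adamts1, a secreted proteoglycanase with a known role in ovulation, had 769.7, 743, 763, 985 and 1359 in control nuclei and 761, 869.8, 770.0, 937 and 969.8 in shOpn3 nuclei. It was not called (log2 difference -0.07 with SE 0.159, adjusted p = 0.812 by limma); whether the neighbours differed from each other was not tested.

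Adamts9 (ENSRNOG00000023257), an enzyme that cuts versican and aggrecan, had 862, 737, 685, 741 and 1222 in control nuclei and 1146, 925, 1288, 1296 and 1318 in shOpn3 nuclei. Control replicate 5 overlapped the shOpn3 samples (log2 difference 0.51 with SE 0.156, adjusted p = 0.0374 by limma; exact permutation p = 0.0238). The call was lost when any sample other than shControl replicate 5 or shOpn3 replicate 2 was left out, with adjusted p from 0.0538 to 0.0927.

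**Figure D4:**
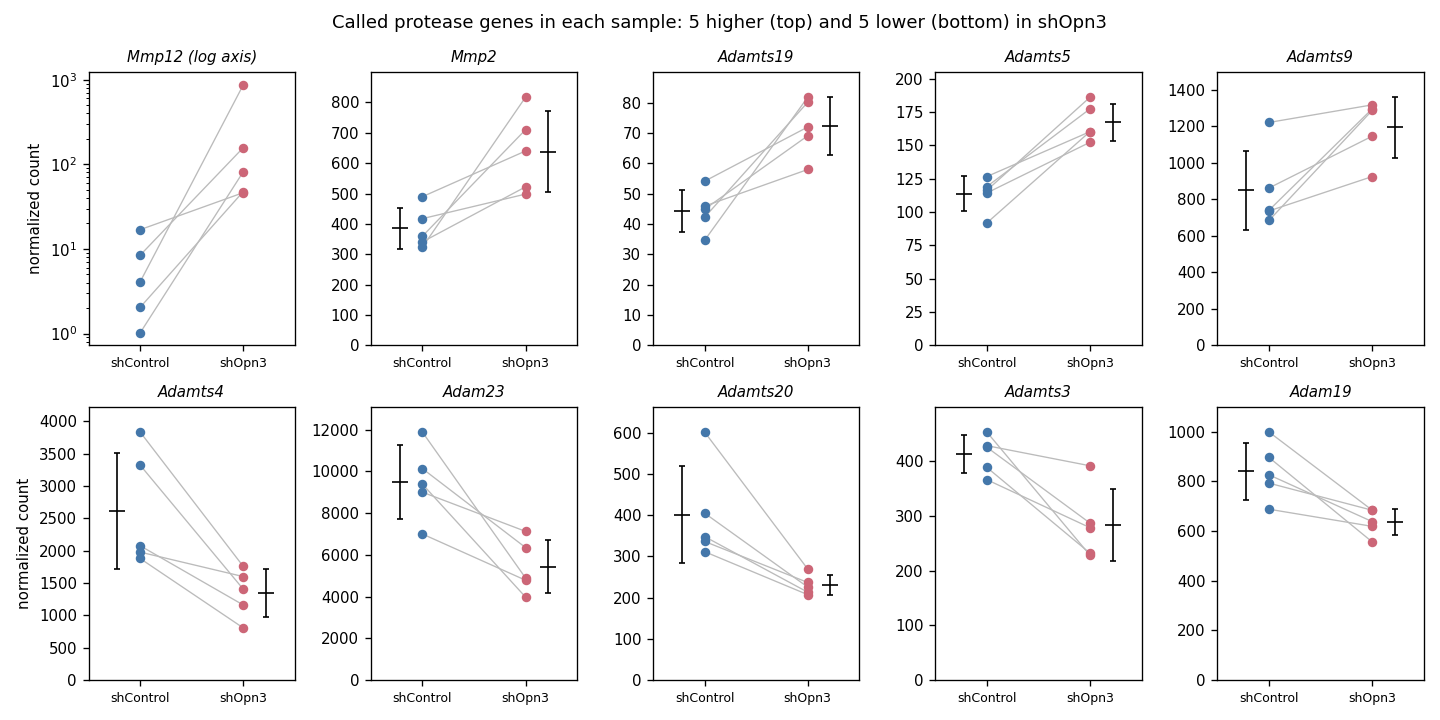
Normalized counts of the 10 called members other than TIMPs in 5 shControl and 5 shOpn3 samples (y axes from 0, except the log axis of Mmp12); grey lines join same-numbered samples, and bars give mean ± SD except for Mmp12. Every line rises in the top row and falls in the bottom row, and the groups overlap for Adamts9, Adam23 and Adamts3.

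Among the remaining ADAMTS genes, Adamts3 fell and Adamts19 rose. Adamts3 (ENSRNOG00000027463) is a procollagen N-proteinase that also cleaves pro-VEGF-C and reelin. It had 428, 425, 453, 389 and 366 normalized counts in control nuclei and 391, 287, 228, 232 and 278 in shOpn3 nuclei, with an overlap at shOpn3 replicate 1 (log2 difference -0.56 with SE 0.144, adjusted p = 0.0167 by limma; exact permutation p = 0.0238). The other members of this class, Adamts2 and Adamts14, were not called. Adamts19 (ENSRNOG00000019577) had 44.9, 34.6, 54.1, 45.9 and 42.2 in control nuclei and 69.1, 81.8, 72.0, 58.0 and 80.1 in shOpn3 nuclei, with no overlap (log2 difference 0.69 with SE 0.166, adjusted p = 0.0119 by limma). After quantile normalization it was not called (adjusted p = 0.0642).

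The 36 tested members that were not called had differences between -0.72 (Mmp9) and 0.63 (Adam32), and 29 of them lay within 0.3 of 0 on the log2 scale. An unadjusted p under 0.05 was found for 4 of the 36. A further 22 members had a mean under 10 and were not tested. Adam33 (mean 7.82) and Mmp13 (8.82) lay just under the limit, and Mmp3 (10.1) and Mmp8 (12.6) just above it. There were 5 with 0 reads in all 10 libraries, namely Mmp1, Mmp27, Adam21, Adam24 and Adam3a, for which each library allows a level of up to 3 reads. Many of the untested ADAMs, such as Adam2, Adam7 and Adam18, are known from testis or epididymis.

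Other genes of the pathway were taken from lists of activators, further inhibitors, ADAMTS-like proteins and substrates. Of 50 tested, 11 were higher and 9 lower (median 0.02), where 10.4% and 8.48% of all genes were. Among 8 inhibitors other than TIMPs, 1 rose and 2 fell. Tfpi2, a secreted inhibitor of serine proteases, rose from 50.5 ± 11.0 to 128 ± 36.5 (each n = 5, SD; log2 difference 1.31 with SE 0.208, adjusted p = 0.00126 by limma). Spock1 and Spock3, which encode the matrix proteoglycans testican 1 and testican 3, fell by 0.33 each (SE 0.0893 and 0.104, by limma adjusted p = 0.0214 and 0.0409). The call of Spock1 was lost after quantile normalization (adjusted p = 0.0682) and without shOpn3 replicate 2 or 3 (adjusted p = 0.0503 and 0.0526). That of Spock3 was lost when any sample other than shControl replicate 1 or shOpn3 replicate 2 was left out (adjusted p from 0.0599 to 0.0901), after quantile normalization (0.0678) and with no filter (0.0552). Reck, a membrane-anchored MMP inhibitor, was not called (0.02, adjusted p = 0.885).

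Among 19 activators and partners, 3 rose and 6 fell. Plau, the urokinase plasminogen activator, whose product plasmin can activate pro-MMPs, had 48.9, 22.4, 28.6, 23.4 and 30.6 normalized counts in control nuclei and 106, 77.5, 144, 158 and 98.6 in shOpn3 nuclei. All shOpn3 samples lay above all controls (log2 difference 1.90 with SE 0.251, adjusted p = 0.000527 by limma). Rhbdf2, which encodes the iRhom2 protein that escorts ADAM17 to the surface of myeloid cells, rose from 63.0 ± 18.1 to 135 ± 40.6 (each n = 5, SD; log2 difference 1.08 with SE 0.253, adjusted p = 0.0110 by limma), while Adam17 itself did not pass the test. Pcsk5 and Pcsk6, proprotein convertases that can activate precursor proteins, fell by 1.00 (SE 0.124, adjusted p = 0.000398 by limma) and 0.78 (SE 0.208, adjusted p = 0.0208). The call of Pcsk6 was lost without shOpn3 replicate 3 (adjusted p = 0.0582). Furin, the convertase best known for MMP and ADAM precursors, was not called (0.15, adjusted p = 0.667).

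Among 19 substrates, 7 rose and 1 fell. Cd44, a hyaluronan receptor cut by MT1-MMP and ADAM10, rose from 1747 ± 261 to 3464 ± 403 (each n = 5, SD; log2 difference 0.99 with SE 0.109, adjusted p = 0.000275 by limma). Il6r, the interleukin-6 receptor, and Tnfrsf1b, a tumour necrosis factor receptor, are both shed by ADAM17 and rose by 0.91 and 0.91 (SE 0.128 and 0.151, by limma adjusted p = 0.000695 and 0.00169). Tgfa, a growth factor that ADAM17 releases, fell from 2482 ± 541 to 1359 ± 216 (each n = 5, SD; log2 difference -0.86 with SE 0.149, adjusted p = 0.00211 by limma). Tnf had 0 reads in all 10 libraries, which allows up to 3 reads in each. None of the 4 ADAMTS-like genes tested was called.

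**Figure D5:**
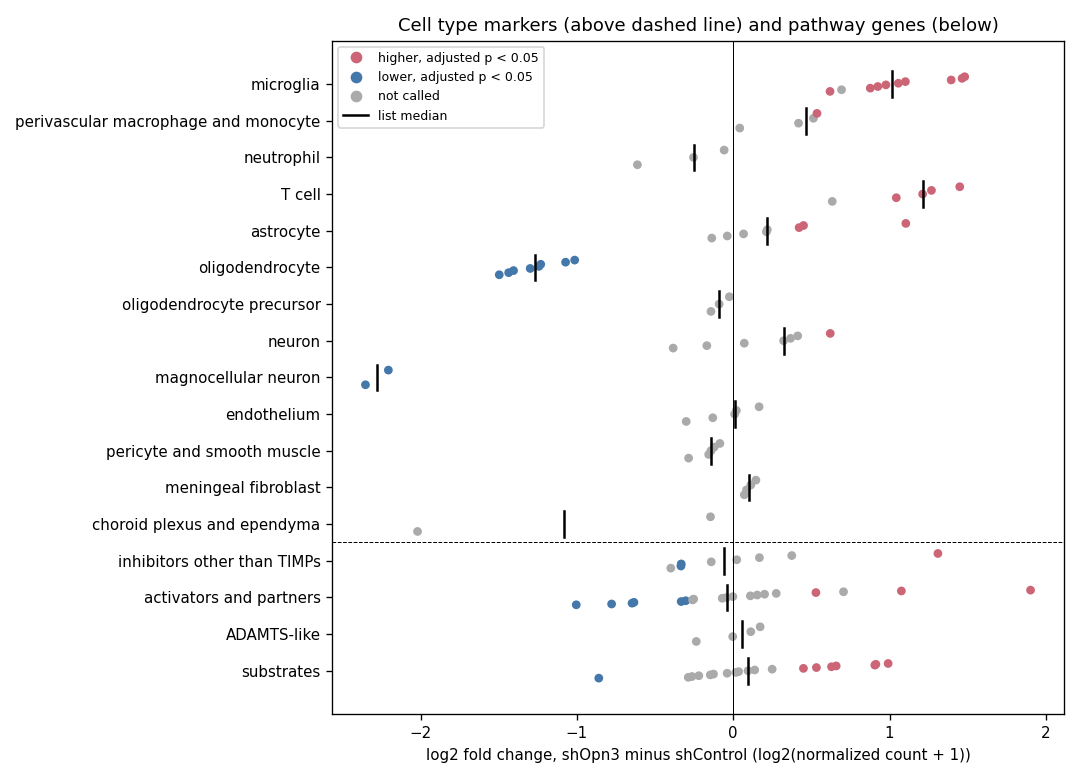
Log2 fold change (shOpn3 minus shControl, x axis) of each tested gene in 13 cell type marker lists (above the dashed line) and 4 pathway lists (below); points are genes, coloured by their limma call, and black bars are list medians. Microglial and T cell markers lie to the right and oligodendrocyte and magnocellular markers to the left, while pathway genes lie on both sides.

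The T cell list, whose genes are few-read transcripts, had 4 of 5 genes higher (sums 56.1 to 132 in shControl and 130 to 375 in shOpn3), and the astrocyte list 3 of 8 higher and 0 lower (sums 262859 to 347382 and 309692 to 450014). Choroid plexus and ependyma markers gave 0 calls of 2, with a sum of 2478 in shControl replicate 5 and of 75.3 to 809 in the other samples. With the replicate block, further genes of these lists were called, namely Ttr of the choroid plexus list (-2.02, adjusted p = 0.0186), Slco1a4 of the endothelial list (0.17, adjusted p = 0.0442), Tmem119 of the microglial list (0.69, adjusted p = 0.0386), and Plat, Vcan and Col4a2 among pathway genes (0.28, -0.29 and -0.26, adjusted p = 0.0382, 0.0397 and 0.0495 by limma). The part of these cell types and of microglia in the rises of Timp1, Mmp2, Adamts5, Plau, Rhbdf2, Cd44, Il6r and Tnfrsf1b was not tested. Control replicates 5 and 1, highest in the oligodendrocyte sum, were also the highest controls for Lgi3, Pcsk6, Tgfa and Spock1, but not for Pcsk5 or Spock3. The part of oligodendrocytes in the falls of these genes was not tested.

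The authors' deposited table, a DESeq2 comparison of the groups, gave an adjusted p under 0.05 to 13 of the 52 members with a value, where 21.3% of all genes with one passed. These were the 12 called here and Mmp15. In that table Timp1 had a log2 fold change of 1.96 and Mmp12 of 5.21.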

How the data were processed

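The deposited values were a signal per gene and sample, namely reads after division by the size factor of the sample, per the file headers and the values. FastQC, STAR, featureCounts and DESeq2 are named without versions in the submitters' processing notes. The genome build, annotation and strand setting are not given in the sources used here. The authors' log2 fold changes with standard errors, their Wald score and their p-values, per the file headers, were used only where their table is named. A DESeq2 (1.42.0) refit differed from that table in 0 fold changes and 0 adjusted p-values by more than 1e-04.

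Whole reads were recovered for 100% of values (tolerance 0.001). Genes whose mean reached 10 were kept, and their log2(normalized count + 1) values were compared between groups with limma (3.58.1, R 4.3.3; eBayes with a trend), two-sided. Exact permutation tests ran over the 252 splits of 5 against 5. Neither these splits nor the main limma fit used the pairing of same-numbered samples. The permutation p-values thus hold only if the samples are independent, and swaps within pairs were not run. The script was tested on simulated data. Same-numbered samples deviated together (r from 0.12 to 0.44 in 5 of 5 pairs). Differently numbered samples had r from -0.45 to 0.36 (median -0.21), so the ranges overlapped and the pairing is not established. The numbers were taken to pair the samples. No label says that equal numbers mark the same rat.

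Members, lists and tests were chosen with earlier results of these data known. Named were 18 members listed beforehand and Opn3, every other called member, and up to 4 called genes of each pathway list, those of largest change. Mmp7, Mmp8, Mmp13, Mmp15, Reck, Furin, Tnf, Adam32, Adam33, the Lgi and Syn genes and those named for their call with the replicate block fell outside this rule and were named after their values were seen. Alternatives were other scalings (TMM, quantile), pseudocounts (0.5, 10), filters (none, mean 50), tests (edgeR 4.0.16 and DESeq2 on recovered reads, limma-voom with sample weights), a replicate block, and leaving out each sample. Of 70 members, 69 matched the RefSeq table of GRCr8 by symbol and 46 its promoter table.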

Additional observations from a re-analysis of the deposited data

Results flagged for a closer look

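In 100 groups of 5 values (each gene named with its values, under each hairpin, other than Tnf, Avp, Oxt and the genes named for their call with the replicate block), 5 held a value set apart by more than 0.71 of the group's range from the nearest other, and about 5 would be found by chance at 1 in 20. For Mmp12 this was shOpn3 replicate 1, at 869 normalized counts against 157 for the second highest. For Tfpi2 it was the same library, at 192 against 122. That library also stood apart for Mmp7, at 5.76 against 1.03, and for Mmp13, at 20.1 against 10.3. For Cd44 it was shControl replicate 5, at 2191 against 1722. The rate of 1 in 20 holds for independent groups of normally spread values. Low read counts and genes read in the same library do not meet this, so the number given for chance is only a rough guide.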

How the results depend on the processing

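Over 20 alternative fits, 9 to 17 members were called against 12. All 12 were kept under both pseudocounts, both filters, TMM scaling, edgeR, DESeq2, the weighted limma-voom fit and the replicate block, and 11 after quantile normalization, without Adamts19. The weighted fit added Mmp9, Mmp17, Adam1a, Adam15 and Adam32. The block added Mmp15 and changed no other call among members. Leaving out single samples gave 9 (without shOpn3 replicate 3) to 12 members, 1973 (without the same sample) to 3057 genes in all, and an Opn3 log2 fold change of -2.14 to -1.66. Over all genes, the replicate block called 4726 and limma-voom with weights 5085, against 2940. These comprised 2350 higher and 2376 lower genes with the block and 2441 and 2644 with limma-voom. Among the values that single named genes took in these fits, 846 kept direction and side of the threshold, 39 lost and 7 gained a call, and 20 changed sign, all for genes that were not called. Quantile normalization gave Timp2 0.046, Timp3 0.038, Mmp3 -0.17 and Mmp8 -0.089. Limma-voom with weights gave Mmp3 -0.082, Adam11 0.19, Adamts1 0.047 and Reck -0.0078. Leaving out single samples gave ranges of -0.086 to 0.069 for Timp3, -0.079 to 0.36 for Mmp3, -0.18 to 0.0031 for Adam8, -0.13 to 0.11 for Adam11, -0.088 to 0.91 for Mmp8, -0.035 to 0.078 for Reck and -0.14 to 0.082 for Adamts1. The cause was not tested. Under the other scalings the median difference of all genes was -0.03. With 33158341 to 39958578 recovered reads per library, members with a mean under 10 were too low to compare.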
